A study of Arabidopsis thaliana with 4 samples.

Results

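The ethylene-jasmonate defence branch of Arabidopsis thaliana was followed through 9 genes, of 23174 genes with a value in the deposited table. They were chosen by locus: ERF1 (AT3G23240), ORA59 (AT1G06160), PDF1.1 (AT1G75830), PDF1.2 (AT5G44420), PDF1.2b (AT2G26020), PDF1.2c (AT5G44430), PDF1.3 (AT2G26010), the basic chitinase gene PR3 (AT3G12500) and PR4 (AT3G04720). The 9 genes were selected on their FPKM values (read fragments scaled by gene length and library depth) in this same contrast of genotypes. Their differences between genotypes are therefore given as a description, with no p-value. Where the genome-wide fit called one of them, the call is counted beside the share of all genes called, and nothing is supported with it. RNA came from whole seedlings of atino80-5, a mutant allele of the chromatin remodelling ATPase gene INO80, and of wild type (WT), with 2 libraries of each. Both genotypes were 14 days old and had grown on MS agar plates at 22 °C, with 16 h of light and 8 h of darkness a day. The labels name neither the lesion of the allele nor the accession of the plants, and they name no treatment. They do not say whether replicates came from separate cultures, so a p-value here reflects how far these libraries spread, and that spread may be technical.

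Plants attacked by fungi that kill their host make jasmonate and ethylene, and the transcription factors ERF1 and ORA59 join both signals. These factors bind the GCC box, a short promoter element, and switch on genes for secreted antifungal proteins. Plant defensins are small cysteine-rich peptides of this kind, and PDF1.2 is the usual marker of the branch. The factor MYC2 drives another branch of the jasmonate response, with VSP1 and VSP2 as markers, and represses this one, and salicylate signalling represses it as well.

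The defensin genes are close copies, which bears on how their reads can be told apart. PDF1.2 and PDF1.2c lie in tandem on chromosome 5 with 1211 bases between them, and PDF1.3 and PDF1.2b lie in tandem on chromosome 2 with 1121 bases between them. PDF1.1, listed in the reference as LCR67, stands alone on chromosome 1. Each has 2 exons, and each coding sequence is 243 bases long, so they can be compared without gaps. The coding sequences are shown 5′ to 3′ with the intron removed, from the RefSeq genome TAIR10.1, and the span given for each holds its intron. Capitals mark the bases at which a copy differs from PDF1.2.
PDF1.2 (chr5:17907216-17907550, minus strand): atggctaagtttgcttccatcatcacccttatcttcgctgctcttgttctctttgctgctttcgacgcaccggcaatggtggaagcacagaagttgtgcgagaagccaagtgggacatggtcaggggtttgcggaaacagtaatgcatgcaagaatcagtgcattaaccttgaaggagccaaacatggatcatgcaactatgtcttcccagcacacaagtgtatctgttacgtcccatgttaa
PDF1.2b (chr2:11089281-11089597, plus strand): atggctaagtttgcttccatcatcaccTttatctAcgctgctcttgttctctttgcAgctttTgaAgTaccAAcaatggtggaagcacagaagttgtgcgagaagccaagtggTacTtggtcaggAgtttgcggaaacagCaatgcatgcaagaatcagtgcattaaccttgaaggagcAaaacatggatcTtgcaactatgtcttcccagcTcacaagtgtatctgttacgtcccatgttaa
PDF1.2c (chr5:17909092-17909444, minus strand): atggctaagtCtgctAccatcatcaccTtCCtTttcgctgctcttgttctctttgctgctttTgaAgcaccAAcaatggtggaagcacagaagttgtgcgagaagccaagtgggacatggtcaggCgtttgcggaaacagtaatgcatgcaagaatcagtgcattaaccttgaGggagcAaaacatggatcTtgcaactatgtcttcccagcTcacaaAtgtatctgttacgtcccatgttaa
PDF1.3 (chr2:11087411-11087755, plus strand): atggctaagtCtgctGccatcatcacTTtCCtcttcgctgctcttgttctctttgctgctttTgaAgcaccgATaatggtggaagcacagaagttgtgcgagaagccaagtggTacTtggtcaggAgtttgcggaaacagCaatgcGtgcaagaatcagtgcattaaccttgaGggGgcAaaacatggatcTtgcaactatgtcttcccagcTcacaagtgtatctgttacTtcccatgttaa
PDF1.1 (chr1:28472405-28472754, plus strand): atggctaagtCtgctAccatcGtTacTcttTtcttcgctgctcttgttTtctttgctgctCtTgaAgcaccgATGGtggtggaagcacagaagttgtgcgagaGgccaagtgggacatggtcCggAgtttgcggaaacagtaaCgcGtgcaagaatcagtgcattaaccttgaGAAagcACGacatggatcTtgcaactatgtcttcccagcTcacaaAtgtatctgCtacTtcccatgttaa
PDF1.2b differs from PDF1.2 at 15 bases, PDF1.2c at 16, PDF1.3 at 21 and PDF1.1 at 30. Among all 10 pairs the identity ran from 87.2% for PDF1.2b with PDF1.1 to 94.7% for PDF1.2c with PDF1.3. The longest run of identical bases in the spliced transcripts was 72 bases, shared by PDF1.2b and PDF1.3, and 52 bases for PDF1.2 with PDF1.2c. A read shorter than such a run could have come from either copy. For the read length and the treatment of reads with several matches, nothing was found in the labels, so the split of reads between copies is uncertain.

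The promoters were searched for the GCC core, spelled GCCGCC, and for the G box, spelled CACGTG, on both strands, because ERF factors bind the first and MYC2 binds the second. The window ran from 250 bases before to 50 bases after the annotated gene start. The GCC core stood in the windows of 3 of the 9 genes, ORA59, PDF1.2 and PDF1.2b, and in 2.57% of 27443 windows of nuclear protein-coding genes. The G box stood in the window of ORA59 alone among the 9, and in 7.68% of all windows. The stretches around the GCC core are shown 5′ to 3′ on the strand of the gene, from TAIR10.1, with GCC core and G box in capitals.
ORA59 (chr1:1882657-1882722, plus strand): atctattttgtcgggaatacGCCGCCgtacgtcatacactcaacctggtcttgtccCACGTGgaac
PDF1.2 (chr5:17907815-17907888, minus strand): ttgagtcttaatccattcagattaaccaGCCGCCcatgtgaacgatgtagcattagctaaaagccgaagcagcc
PDF1.2b (chr2:11088940-11089025, plus strand): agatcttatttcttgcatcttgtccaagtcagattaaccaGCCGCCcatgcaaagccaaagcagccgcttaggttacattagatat
Counted from the gene start, the core began at position -230 in ORA59, -222 in PDF1.2 and -143 in PDF1.2b, and the G box of ORA59 at -194. PDF1.2 and PDF1.2b, which lie on chromosomes 5 and 2, share a run of 22 bases around it, tcagattaaccaGCCGCCcatg. The letters of the core were not found in this window of the other 6 genes, which says nothing of sequence outside it.

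ORA59, PR3 and PR4 stood higher in atino80-5 and the defensin genes of the PDF1.2 group lower, while PDF1.1 stood higher and ERF1 differed little. For 5 genes both atino80-5 libraries lay above both WT libraries, as for 33.4% of the 17642 tested genes, whose mean over the libraries reached 1 FPKM. For the other 4 both lay below, as for 28.8% of tested genes, and together 62.2% of tested genes showed no overlap. By the genome-wide limma test, 3 of the 9 genes were called higher (ORA59, PDF1.1 and PR3), against 2.99% of all tested genes. A further 3 were called lower (PDF1.2b, PDF1.2c and PDF1.3), against 2.42% of all tested genes and 5.41% in either direction. In the authors' deposited table of their DESeq2 test, 4 were called higher, against 5.85% of 20478 genes with an adjusted p there, and 3 lower, against 3.65% (9.5% in either direction). The added call upward in that table was PR4. Nothing is read from these counts, since the same contrast entered the choice of the genes.

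**Figure D1:**
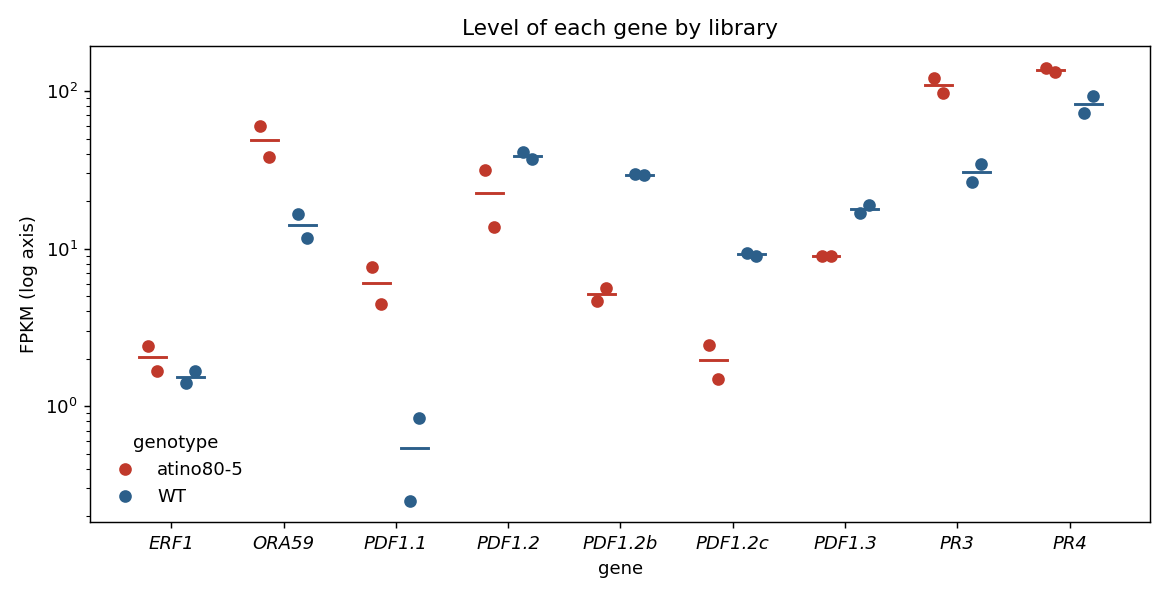
Level of each of the 9 genes in FPKM, on a log axis, with 1 point per library and a line at the mean of each genotype, atino80-5 in red left of WT in blue. The points of ORA59 and PR3 lie above WT in atino80-5, those of PDF1.2b and PDF1.2c lie below, and PDF1.1 is near 0 in WT.

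Of the regulators, ORA59 was the more abundant and the more different between genotypes. ORA59 stood at 60.1 and 38.2 FPKM in the atino80-5 libraries, against 16.5 and 11.7 FPKM in WT, from 654 and 507 reads against 229 and 218 reads. The ratio of its means was 3.49, and its log2 difference was 1.72 (SE 0.27) on the log2(FPKM + 1) scale. ERF1 stood at 2.405 and 1.68 FPKM in atino80-5, against 1.399 and 1.66 FPKM in WT. It rested on only 27 and 23 reads against 20 and 32 reads, and its lower mutant library was close to its higher WT library. Its log2 difference was 0.26 (SE 0.18). Per length, ORA59 exceeded ERF1 by a factor of 25 and 22.8 in the atino80-5 libraries, against 11.8 and 7.03 in the WT libraries.

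PDF1.2, the marker gene of the branch, was lower in atino80-5, but its mutant libraries were far apart. It stood at 31.3 and 13.8 FPKM in atino80-5, against 41.1 and 36.9 FPKM in WT, from 194 and 104 reads in atino80-5. Its log2 difference was -0.87 (SE 0.36) over all libraries, -1.43 without atino80-5 replicate 1 and -0.30 without atino80-5 replicate 2. Either mutant library lay below both WT libraries, by very different amounts. PDF1.2b had the most negative log2 difference of the 9 genes. It stood at 4.67 and 5.65 FPKM in atino80-5, against 29.7 and 29.2 FPKM in WT, from 19 and 28 reads against 154 and 204 reads. Its WT mean was 5.71 times its mutant mean, with a log2 difference of -2.31 (SE 0.16). PDF1.2c, the tandem neighbour of PDF1.2, stood at 2.43 and 1.495 FPKM in atino80-5, against 9.43 and 8.94 FPKM in WT. These were 16 and 12 reads against 79 and 101 reads, and the WT mean was 4.68 times the mutant mean (log2 difference -1.80, SE 0.19). PDF1.3, the tandem neighbour of PDF1.2b, stood at 9.03 and 8.93 FPKM in atino80-5, against 16.8 and 19.0 FPKM in WT. Its WT mean was 1.99 times its mutant mean (log2 difference -0.92, SE 0.15), so the ratio in each tandem pair was unequal. The call of PDF1.3 ended without WT replicate 1 (log2 difference -1.005) and without WT replicate 2 (-0.83).

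Summing these 4 copies avoids the question of which copy a read belongs to, as far as each read was given to any of them. Their reads divided by size factor summed to 372 and 230 in the atino80-5 libraries, against 706 and 686 in the WT libraries. The mean was 301 ± 101 in atino80-5 and 696 ± 14.3 in WT (SD, n = 2 each), a ratio of 0.432. The WT sums were thus nearly equal, and the mutant sums differed mainly through PDF1.2. PDF1.2 took 66.4% (95% Clopper-Pearson interval 60.7 to 71.8%) and 47.3% (40.5 to 54.1%) of these reads in the atino80-5 libraries, against 45.9% (42.2 to 49.6%) and 42.4% (39.2 to 45.6%) in the WT libraries. PDF1.2b took 6.51% (3.96 to 9.97%) and 12.7% (8.63 to 17.9%) in atino80-5, against 21.8% (18.8 to 25%) and 22.1% (19.4 to 24.9%) in WT. The share of PDF1.2b was lower in both mutant libraries than in either WT library, and that of PDF1.2 was higher, by little in atino80-5 replicate 2. The intervals cover counting error only and test no difference between genotypes, and the shares rest on the uncertain split of reads between copies.

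**Figure D2:**
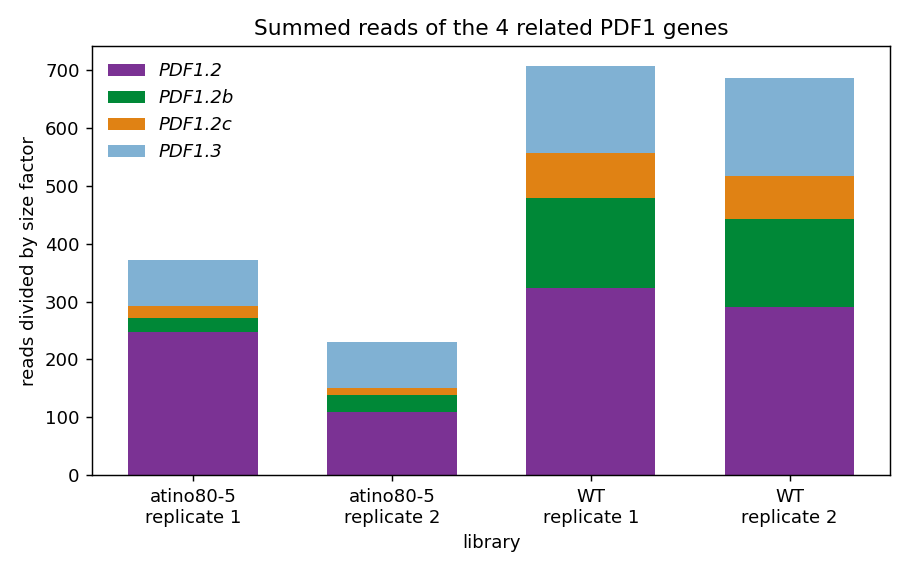
Stacked reads of PDF1.2, PDF1.2b, PDF1.2c and PDF1.3, each divided by the size factor of its library, in the 2 atino80-5 and the 2 WT libraries. The bars reach 372 and 230 in atino80-5, against 706 and 686 in WT, and each of the 4 segments has a lower mean in atino80-5 than in WT.

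PDF1.1, a defensin gene known from seeds, differed from the other defensin genes in its direction. It stood at 7.68 and 4.46 FPKM in atino80-5, against 0.251 and 0.838 FPKM in WT, from 48 and 34 reads against 2 and 9 reads. Both mutant libraries were high and both WT libraries near 0, and the gene reached the mean of 1 FPKM needed for testing only through its mutant values. The ratio of means was 11.1, with a log2 difference of 2.18 (SE 0.28). Seed transcripts moved the same way. The 10 seed marker genes, storage proteins and oleosins, summed to 58.5 and 68.2 FPKM in atino80-5, against 0.900 and 0.799 FPKM in WT. Each of the 10 was higher in both mutant libraries, as were 33.4% of all tested genes. By mean, the largest parts of the sum were CRA1, at 21.2 and 28.7 FPKM in atino80-5, and SESA5, at 14.8 and 12.6 FPKM. Only 6 of the 10 reached the minimum level, all of them through their mutant values, so they give no independent support. The 4 that did not reach it are not among the genes behind the 33.4%. CRU2, SESA3 and SESA4 had at most 6 reads in a library. No read was found in either WT library for 6 of the 10, namely CRU2 and SESA1 to SESA5. The part of seed transcripts in the level of PDF1.1 was not tested. In whole seedlings, fewer cells of a type and less RNA per cell cannot be told apart. Root markers summed to 624 and 708 FPKM in atino80-5, against 440 and 502 FPKM in WT, with none of 9 called. PYK10 alone stood at 500 and 601 FPKM in atino80-5, against 323 and 372 FPKM in WT. Of the 9 root markers 3 had a positive and 6 a negative log2 difference, with a median of -0.19, so the higher sum does not stand for the list. Green leaf markers summed to 40643 and 54078 FPKM in atino80-5, against 47815 and 39842 FPKM in WT, with none of 7 called. RBCS1A alone stood at 20628 and 36160 FPKM in atino80-5, against 34644 and 24951 FPKM in WT. Of the 7 leaf markers 5 had a positive and 2 a negative log2 difference, with a median of 0.01. For 3 both mutant libraries lay above both WT libraries and for 1 below, against 33.4% and 28.8% of all tested genes. The leaf sum therefore does not stand for the list either.

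The chitin-binding genes were both higher in atino80-5 and unequally so. PR3, the basic chitinase gene listed in the reference as HCHIB, cleaves chitin of fungal walls. It stood at 122 and 98.0 FPKM in atino80-5, against 26.6 and 34.4 FPKM in WT, from 2278 and 2238 reads against 634 and 1107 reads. The ratio of its means was 3.60 and its log2 difference 1.82 (SE 0.21). It overlaps the annotated gene AT3G12502, and a read from the overlap could belong to either, as nothing found in the labels says how strand was used in counting. PR4, a relative of the chitin-binding protein hevein, stood at 141 and 133 FPKM in atino80-5, against 72.5 and 92.9 FPKM in WT. The ratio of its means was 1.66, with a log2 difference of 0.73 (SE 0.20). Per length PR4 exceeded PR3 by a factor of 1.16 and 1.36 in the atino80-5 libraries, against 2.73 and 2.70 in the WT libraries. This order in atino80-5 depends on the gene lengths behind the FPKM values. With the same reads divided by exon length in the reference, PR4 would stand at 129 and 122 in atino80-5. PR3 would stand at 142 and 114 there, so they would overlap. The reads were not recounted on the reference models, so this shows only that the order depends on the length used.

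The order of the levels per length therefore differed between genotypes. In atino80-5 it ran PR4, PR3, ORA59, PDF1.2, PDF1.3, PDF1.1, PDF1.2b, ERF1 and PDF1.2c by mean FPKM, where PDF1.1 and PDF1.2b, and ERF1 and PDF1.2c, overlapped in their libraries. In WT it ran PR4, PDF1.2, PR3, PDF1.2b, PDF1.3, ORA59, PDF1.2c, ERF1 and PDF1.1, where PR3 and PDF1.2b overlapped. The length behind the FPKM of PDF1.2b was 348 bases, against 609 exon bases in the reference. With the same reads divided by reference exon length, PDF1.2b would stand at 16.996 and 16.693 in the WT libraries. PDF1.3 would stand at 16.2 and 18.3 there, so these neighbours in the order would overlap. The reads were counted on the gene models behind the FPKM values, not on those of the reference. The rescaled values are therefore no levels on the reference models, and the overlaps show only that the order depends on the length used. On that scale PR4 and PR3 would overlap in atino80-5, as given above, and so would PDF1.1, at 9.44 and 5.48, and PDF1.3, at 8.70 and 8.60. In WT, PDF1.2 would stand at 37.6 and 33.7 and PR3 at 31.04 and 40.2, so they would overlap too. Ratios of 1 gene between libraries do not depend on the length.

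**Figure D3:**
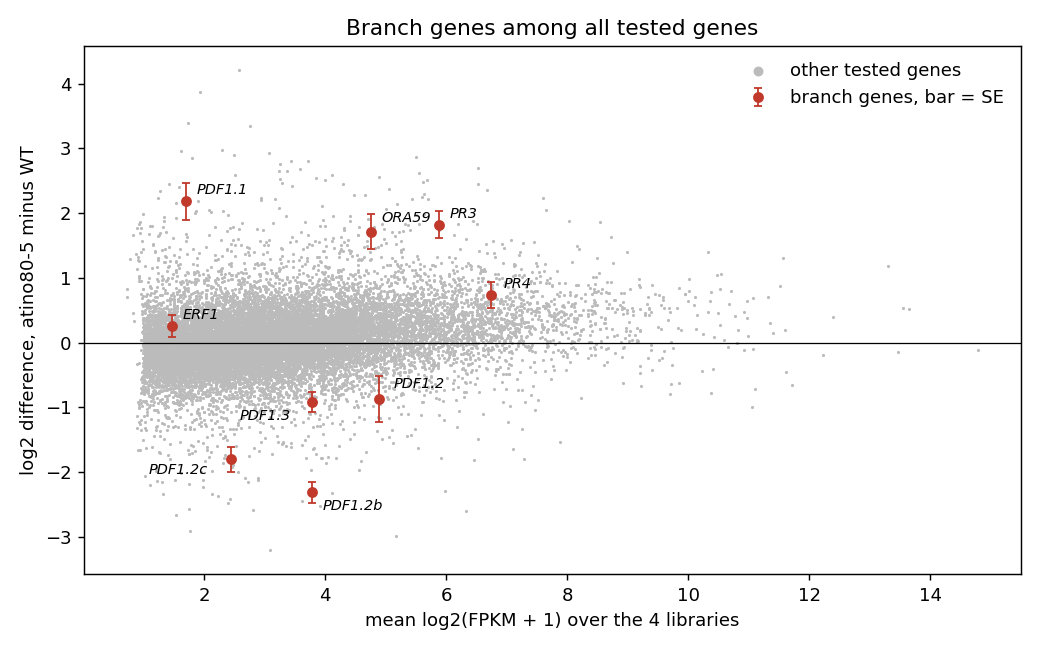
Log2 difference in log2(FPKM + 1), atino80-5 minus WT, against the mean log2 level over the 4 libraries, for the 9 branch genes in red with their SE and the other tested genes in grey. ORA59, PR3 and PDF1.1 lie in the upper fringe of the cloud and PDF1.2b and PDF1.2c in the lower, with ERF1 inside it.

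The genes whose profile over the 4 libraries was nearest to that of PDF1.2 were NATA1, MIR171c, TH7, GSTU7 and TAT7. The measure was the Euclidean distance between centred log2(FPKM + 1) profiles, which was 0.221, 0.247, 0.298, 0.301 and 0.407 in that order. GSTU7, a glutathione transferase gene, was the most abundant, with 88.2 and 45.6 FPKM in atino80-5, against 101.4 and 92.6 FPKM in WT. MIR171c had at most 3 reads in a library. NATA1 had 10 and 0 reads in atino80-5, against 28 and 25 in WT, and TH7 had 13 and 2, against 19 and 24. MIR171c, NATA1 and TH7 reached the minimum mean of 1 FPKM only through their WT values. With 4 libraries, few profiles can be separated.

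Of 17642 tested genes 955 were called between genotypes, 528 higher and 427 lower in atino80-5, and the median log2 difference was 0.03. Without atino80-5 replicate 1 the calls were 1561, without atino80-5 replicate 2 they were 6896, without WT replicate 1 they were 443 and without WT replicate 2 they were 587. With libraries scaled to total reads the calls were 484 higher and 1133 lower, with a median of -0.16, and the sign of all 9 genes stayed the same. The libraries held 13068214 and 14746250 reads in atino80-5, and 13846046 and 18406709 reads in WT. Log2 levels correlated at r = 0.973 between the mutant libraries and r = 0.990 between the WT libraries across genes, which are not independent replicates. INO80 (AT3G57300) itself stood at 2.72 and 3.13 FPKM in atino80-5, against 4.28 and 4.54 FPKM in WT, and was not called.

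Transcripts upstream of the branch were compared through lists of other pathway genes. These lists and those below were chosen with earlier results of these data known, so their counts and p-values are descriptions that support nothing. Among all tested genes 2.99% were called higher and 2.42% lower, 5.41% in either direction, which stands beside the counts of both lists here. Of 13 ethylene synthesis genes 7 reached the minimum level, and of these none rose, 1 fell and 6 were not called. The gene that fell was ACS2, an ACC synthase gene, at 0.523 and 0.509 FPKM in atino80-5, against 1.54 and 1.73 FPKM in WT (log2 difference -0.80, SE 0.15, limma adjusted p = 0.0357). Its limma adjusted p was 0.125 without WT replicate 1 and 0.162 without WT replicate 2, in a range of 0.0119 to 0.162 over the alternatives. ACS2 reached the minimum level only through its WT values, so its call gives no independent support. ACS6, another ACC synthase gene, named after its values were seen, stood at 47.9 and 28.0 FPKM in atino80-5, against 13.8 and 19.1 FPKM in WT (log2 difference 1.12, SE 0.29, limma adjusted p = 0.0803). Both mutant libraries of ACS6 lay above both WT libraries. It was called higher with the replicate block, with voom and without atino80-5 replicate 2, and its limma adjusted p ranged from 0.00268 to 0.306 over the alternatives. Of 13 genes of ethylene perception and signalling 1 rose, none fell and 12 were not called, with a median log2 difference of 0.24. EBF2, which encodes an F-box protein that targets EIN3 for breakdown and is itself induced by ethylene, stood at 126 and 88.7 FPKM in atino80-5, against 45.7 and 52.0 FPKM in WT (log2 difference 1.099, SE 0.22, limma adjusted p = 0.0452). Without WT replicate 1 or replicate 2 its limma adjusted p was 0.261 and 0.128, in a range of 0.00174 to 0.261, and it overlaps neighbouring genes. Its paralog EBF1 stood at 64.7 and 50.4 FPKM in atino80-5, against 41.1 and 46.0 FPKM in WT, and was not called (limma adjusted p = 0.246). EIN3 and EIL1, named after their values were seen, encode the factors that activate ERF1 and ORA59. EIN3 stood at 48.6 and 45.2 FPKM in atino80-5, against 44.6 and 46.8 FPKM in WT, and EIL1 at 25.1 and 34.0 FPKM, against 31.0 and 31.99 FPKM in WT. Both overlapped between genotypes.

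Genes that act on ERF1, ORA59 or PDF1.2 went mostly upward where called. Of 29 such genes 25 were tested, of which 7 rose, 1 fell and 17 were not called, with a median log2 difference of 0.12, against the 2.99% and 2.42% of all tested genes called higher and lower. The list mixes activators and repressors. It was chosen with earlier results of these data known, so nothing is read from its count. ERF6 stood at 113 and 75.0 FPKM in atino80-5, against 16.6 and 21.9 FPKM in WT (log2 difference 2.21, SE 0.25, limma adjusted p = 0.00821). ERF2 stood at 103 and 74.7 FPKM in atino80-5, against 25.2 and 22.7 FPKM in WT (log2 difference 1.84, SE 0.21, limma adjusted p = 0.0084). ERF5 stood at 40.4 and 30.7 FPKM in atino80-5, against 13.8 and 14.1 FPKM in WT (log2 difference 1.27, SE 0.18, limma adjusted p = 0.0175). These 3 ERF factors activate genes with a GCC box. The limma adjusted p of ERF5 was 0.0629 without WT replicate 1, the highest of a range from 0.000977. MYC2, the repressor of the branch, stood at 87.9 and 65.1 FPKM in atino80-5, against 21.3 and 22.9 FPKM in WT (log2 difference 1.73, SE 0.20, limma adjusted p = 0.00847), and overlaps a neighbouring gene.

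The other calls in that list are named after their values were seen. ERF4, a repressor of PDF1.2, rose to 149 and 64.1 FPKM in atino80-5, against 23.3 and 24.6 FPKM in WT. ERF104 rose to 130 and 124 FPKM in atino80-5, against 61.6 and 50.3 FPKM in WT, and the kinase gene MKK9 rose to 27.4 and 18.6 FPKM, against 6.77 and 10.4 FPKM in WT. GRX480, a glutaredoxin gene whose product represses PDF1.2 through TGA factors, fell to 1.71 and 0.702 FPKM in atino80-5, against 4.37 and 4.49 FPKM in WT. Their limma adjusted p-values were 0.0379, 0.0221, 0.041 and 0.0304 in that order. The call of ERF104 ended without WT replicate 1 (log2 difference 1.32) or replicate 2 (1.03), and that of MKK9 without WT replicate 1 (1.05). With no filter on low levels the calls of ERF4, MKK9 and GRX480 ended.

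**Figure D4:**
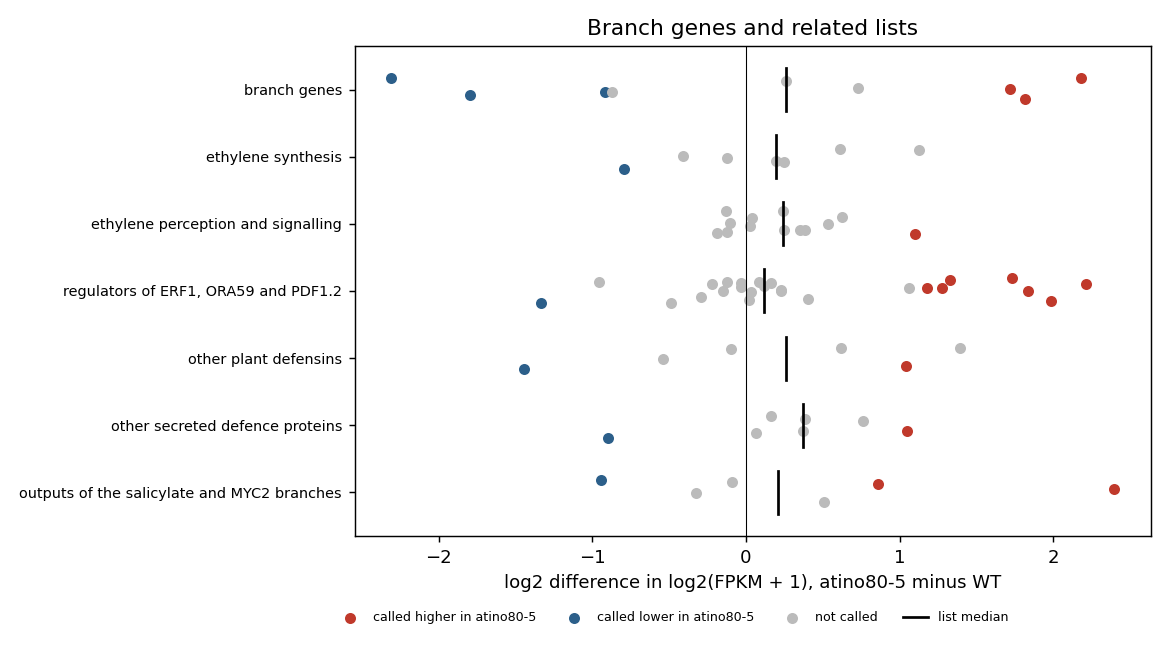
Log2 differences in log2(FPKM + 1), atino80-5 minus WT, of the 9 branch genes and of the tested genes of 6 related lists, with 1 point per gene coloured by its call in the limma test and a black line at each list's median. The list medians lie between 0.12 and 0.37, and the regulators of ERF1, ORA59 and PDF1.2 hold 7 calls upward and 1 downward. Among all tested genes 2.99% were called higher and 2.42% lower.

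Defensin genes outside the branch also went both ways. Of 10 other defensin genes 6 had a value here and all 6 were tested. Of these 1 rose, 1 fell and 4 were not called, with a median log2 difference of 0.26, against 2.99% of all tested genes called higher and 2.42% lower. PDF1.4, of the same subfamily as PDF1.2, stood at 2.00 and 2.14 FPKM in atino80-5, against 7.84 and 6.89 FPKM in WT (log2 difference -1.44, SE 0.15, limma adjusted p = 0.00594). PDF2.1 stood at 67.2 and 63.1 FPKM in atino80-5, against 29.4 and 32.8 FPKM in WT (log2 difference 1.04, SE 0.16, limma adjusted p = 0.0219). The limma adjusted p of PDF2.1 was 0.226 without WT replicate 1 and 0.115 without WT replicate 2, in a range of 0.00268 to 0.226. PDF2.2, the most abundant defensin gene here and named after its values were seen, stood at 1208 and 556 FPKM in atino80-5, against 297 and 325 FPKM in WT. Its mutant libraries were far apart, both above WT, and it was not called (limma adjusted p = 0.0882, with a range of 0.00107 to 0.29 over the alternatives).

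Of 11 genes for other secreted defence proteins 7 were tested, of which 1 rose, 1 fell and 5 were not called, with a median log2 difference of 0.37. Beside this list and the next, 2.99% of all tested genes were called higher and 2.42% lower. The thionin gene THI2.2 stood at 83.9 and 75.3 FPKM in atino80-5, against 39.7 and 36.1 FPKM in WT (log2 difference 1.05, SE 0.17, limma adjusted p = 0.0237). The trypsin inhibitor gene ATTI1 stood at 6.92 and 8.34 FPKM in atino80-5, against 13.6 and 16.5 FPKM in WT (log2 difference -0.90, SE 0.17, limma adjusted p = 0.0396). Without WT replicate 1 or replicate 2 both calls ended, with limma adjusted p of 0.144 and 0.203 for THI2.2 and 0.102 and 0.241 for ATTI1, the highest of ranges that start at 0.00242 and 0.00444. Markers of the neighbouring branches were a mixed group, of which 2 of 6 rose, 1 fell and 3 were not called, with a median log2 difference of 0.21. The salicylate marker PR1 stood at 6.19 and 5.63 FPKM in atino80-5, against 0.177 and 0.459 FPKM in WT (limma adjusted p = 0.00312). PR1 had only 2 and 7 reads in WT and passed the filter on its mutant values, so this call gives no independent support. PR2 stood at 4.46 and 5.54 FPKM in atino80-5, against 2.602 and 2.00 FPKM in WT (limma adjusted p = 0.0441). VSP1, a marker of the MYC2 branch, stood at 10.01 and 12.8 FPKM in atino80-5, against 24.5 and 21.1 FPKM in WT (limma adjusted p = 0.0396). VSP2, the more abundant marker of that branch and named after its values were seen, differed less and was not called. It stood at 73.8 and 74.9 FPKM in atino80-5, against 92.6 and 93.9 FPKM in WT (log2 difference -0.32, limma adjusted p = 0.259). The calls of PR2 and VSP1 ended without WT replicate 1 (log2 differences 0.99 and -0.84) and without WT replicate 2 (0.73 and -1.05). With no filter on low levels the calls of PR2, VSP1, ATTI1 and EBF2 ended as well, that of PR2 also ended when scaled to total reads and that of EBF2 after quantile normalisation.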

How the data were processed

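Per the labels' protocols, polyA RNA was selected from total RNA of whole seedlings and the libraries were stranded (dUTP method). Per the submitters' processing notes, the authors used HISAT2 and featureCounts on the TAIR10 genome, with DESeq2, SAMtools, cutadapt, FastQC and deepTools also listed, all without versions. Nothing found in the labels gives the annotation release, the read length or the strand setting. The authors deposited FPKM values for 23174 genes per library, with genotype means, and the p-values and adjusted p-values of their DESeq2 test. Their deposited table also holds log2 fold changes with errors, the test score, and the mean normalised signal over libraries.

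The FPKM values combined with that signal gave whole reads for 100% of 92696 values within 0.01, and whole gene lengths. Those lengths equalled the gene span of the reference for 11.1% of genes (median ratio 0.94), so the gene models behind the FPKM values differ from those of the reference. Genes whose mean reached 1 FPKM were tested on log2(FPKM + 1) by limma (3.58.1, R 4.3.3), whose prior variance followed the level. Genotype was its single term, and a call needed a two-sided p under 0.05 after Benjamini-Hochberg adjustment over all tested genes. Log2 differences on this scale understate the change of low genes. The same fit was run on simulated reads with known changes, as a check of the code. The simulation gave both genotypes the same spread and left low genes unchanged, so it says nothing of error rates in these libraries.

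The 9 genes and all lists were chosen with earlier results of these data known. From each list up to 4 called genes with the smallest adjusted p are named, or the most abundant up to 2 where fewer than 2 were called. All marker genes could be named, and the 5 genes nearest to PDF1.2. A gene that this rule names in the ethylene synthesis list is not reported here. Sequences and gene starts are from the RefSeq genome and annotation TAIR10.1, whose nuclear chromosomes are those of TAIR10. Alternatives were other pseudocounts, no filter, a replicate block, voom on the recovered reads, other scalings and each library left out. All columns of per-sample values were used.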

Additional observations from a re-analysis of the deposited data

How the results depend on the processing

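Of 99 values of the 9 genes under 11 alternatives each, none changed sign. With other pseudocounts, no filter, the replicate block or a library left out, the sign could not change. The libraries of the genotypes overlapped for none of the 9 genes, so the sign was not tested by these alternatives. The call of PDF1.3 ended in 2, both without a WT library. PDF1.2 was called with the replicate block and without atino80-5 replicate 1, and PR4 with voom and without atino80-5 replicate 2. The count of called genes among the 9 was 6, and 6 or 7 under the alternatives that kept all 4 libraries. The count over all genes was 955, and 1985 with the replicate block, 1617 scaled to total reads and 443 to 6896 with each library left out, the highest without atino80-5 replicate 2, where 1 mutant library is assumed to vary like the others. The replicate numbers are shared between genotypes, but the labels do not say what they mark, and deviations of same-numbered libraries correlated at r = -0.034. With the replicate block the ethylene synthesis and the perception lists held 2 calls each, in place of 1. The same 2 counts were 2 with voom, and the perception list had 0 with no filter. With no filter the other secreted proteins and the salicylate and MYC2 outputs held 1 call each, in place of 2 and 3. With each library left out the counts ran from 0 to 3 for synthesis, 0 to 5 for perception, 5 to 12 for the regulators of ERF1, ORA59 and PDF1.2, 1 to 5 for other defensins, 0 to 3 for other secreted proteins and 1 to 4 for the outputs of the neighbouring branches. The GCC core spelled AGCCGCC stood in 0.794% of windows, and GCCGCC in 1.87% of windows that end at the gene start. The cause of these changes was not tested. Few reads limit ERF1, PDF1.1, PDF1.2b and PDF1.2c. Among other named genes they also limit ACS2, PDF1.4 and GRX480. PDF1.4 had 13 and 17 reads in atino80-5, against 65 and 77 in WT, and GRX480 had 12 and 6, against 39 and 54.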
